A study of Drosophila melanogaster with 2 samples.

Results

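The core genes of programmed cell death in *Drosophila* were described in embryos that lack *mid*, the T-box transcription factor gene, and in control embryos. The members were 10 named genes, taken by their symbols or unique synonyms, namely the death inducers *rpr*, *hid*, *grim* and *skl*, the caspases *Dronc*, *Drice* and *Dcp-1*, the caspase activator *Dark*, and the inhibitors *Diap1* and *Diap2*. Of these, 6 had a probe set annotated with a single symbol and 4 were measured, out of 10845 named genes of which 7685 were measured. No such probe set matched *rpr*, *hid*, *Drice* or *Diap1*, which were not analysed here. "Measured" means a signal above the floor on at least 1 array. The floor was 97.6, the 40th percentile of both arrays pooled.

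RNA came from whole embryos, either *yw* or homozygous for a *mid* mutation, kept on apple juice plates for 16 h after egg laying at 25 °C, with 1 array per genotype. *yw* flies are mutant for *yellow* and *white*, which affect body and eye colour. The mutants were told apart by a GFP-marked CyO balancer, and the labels do not give their allele, although the stock list names *mid1*. The labels give *yw* as the control and the Methods heterozygous *mid* embryos, so that genotype and stock background cannot be told apart. Differences between single arrays cannot be checked against replicates, and p-values are not given. A gene counted as called if it differed by more than 2-fold, whatever its error. As the arrays hold RNA of whole embryos, fewer cells of a type and less RNA per cell cannot be told apart.

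Programmed cell death in flies is controlled by a short chain of proteins. The inducers Reaper, Hid, Grim and Sickle bind inhibitor of apoptosis proteins, chiefly Diap1, and so free the caspases that these inhibitors hold in check. Dark, the fly relative of Apaf-1, assembles with the initiator caspase Dronc into the apoptosome, and active Dronc cleaves the effector caspases Drice and Dcp-1, which dismantle the cell. In the embryo the pathway removes many cells, above all in the nervous system and the head. Embryos that lack the chromosome segment with *hid*, *grim* and *rpr* form almost no dying cells.

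The median deposited signal was 150 in *yw* and 43.3 in *mid*, and the *mid* array was therefore scaled up to the *yw* median. All signals below are on this *yw* scale, and log2 fold changes are *mid* over *yw*. The *yw* array also gave more signal for each of the 9 spiked controls, by a median of 2.76 times. Probe sets of the same gene, above the floor on both arrays, had log2 fold changes with a within-gene SD of 0.53 over 287 genes. The corresponding SD of the difference between a pair of probe sets was 0.75. These values serve as a scale of technical disagreement and do not replace replicates. The probe set of *mid* itself was at the floor on both arrays (49.3 in *yw* and 56.8 in *mid*), so that it gives no check of the labels. Of 4 transcripts with 3′ and 5′ control probe sets, 3 had the larger 3′/5′ ratio in *mid*, such as actin with 28.8 in *yw* and 53.5 in *mid*. The 3′ signal was far above the 5′ signal on both arrays. The ratio was 21.6 in *yw* and 17.3 in *mid* for GAPDH, 50.8 and 63.3 for eIF-4a, and 4.52 and 7.43 for 18S rRNA. The part of these ratios, and of their difference between the arrays, in the results was not tested.

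None of the 4 measured members was called higher or lower in the *mid* mutant embryos. Among all measured genes, 5.66% were called higher and 4.5% lower. At 1.5-fold, again none of the members was called after median centring, against 16.6% of measured genes higher and 12.8% lower. *Dronc* and *Dcp-1* were past 1.5-fold lower with each other scaling, but these scalings also shifted all genes lower. The share of all genes past 1.5-fold was not computed under them. With the shift of all genes removed, neither gene was past 1.5-fold, at -0.52 for *Dronc* and -0.54 for *Dcp-1* with quantile normalization and with loess. *Dronc* and *Dcp-1*, caspase genes of the initiator and the effector step, read 1.44-fold and 1.43-fold lower in *mid* than in *yw*, whereas *Dark* and *Diap2* differed little between the arrays. The inducers *grim* and *skl* lay below the floor in *yw* and in *mid*. The 4 log2 fold changes ran from -0.53 to 0.12 with a median of -0.28. The median of the 7685 measured genes was 0.06. After median centring each of the 4 was within the SD of 0.53 between probe sets of the same gene. *Dronc* and *Dcp-1* exceeded it with each other scaling, at -0.59 and -0.61 with quantile normalization, -0.60 and -0.62 with loess, -0.64 and -0.63 with the equal mean of central values, and -0.85 and -0.85 with the spiked controls, where all genes shifted by -0.06, -0.08, -0.11 and -0.33 respectively.

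*Dronc*, which encodes the initiator caspase related to caspase-9, read 335 in *yw* and 233 in *mid*. The *mid* array was the lower of the pair, with a log2 fold change of -0.53 (1.44-fold). Ranked among all probe sets of its array, a measure that no common factor between arrays can move, *Dronc* stood at percentile 68.9 in *yw* and 59.97 in *mid*. Its log2 fold change lay at percentile 14.9 of all measured genes.

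*Dcp-1*, which encodes an effector caspase, read 713 in *yw* and 497 in *mid*. It was lower in *mid* by 1.43-fold, a log2 fold change of -0.52. Its rank went from percentile 81.9 in *yw* to 75.4 in *mid*, and the fold change lay at percentile 15.1 of measured genes. The log2 fold change of *Dronc* minus that of *Dcp-1* was -0.01. This is far less in size than 0.75, the SD of the difference between a pair of probe sets.

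*Dark*, which encodes the scaffold of the apoptosome, read 143 in *yw* and 139 in *mid*. After median centring the arrays were nearly level, with a log2 fold change of -0.04, and the ranks were at percentiles 48.9 and 48.3. The deposited values, before scaling, were 143 in *yw* and 40.2 in *mid*. The paper's supplement lists *Ark*, a synonym of *Dark*, among wing development genes down-regulated in the *mid* mutant. The reason for this disagreement was not tested. *Dark* was the dimmest of the measured members, at 1.47 times the floor in *yw* and 1.43 times in *mid*.

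*Diap2*, which encodes an inhibitor of apoptosis that also acts in the Imd pathway of immunity, read 679 in *yw* and 738 in *mid*. The log2 fold change was 0.12 (1.09-fold) after median centring, and -0.21 when the arrays were scaled on the spiked controls, where all genes shifted by -0.33. Its rank was the same to within a percentile point, at 81.3 and 81.5. Subtracting the log2 fold change of *Diap2* gave -0.65 for *Dronc* and -0.64 for *Dcp-1*. A common factor between the arrays cancels in these differences. They were smaller in size than 0.75, the SD of the difference between a pair of probe sets. No order of the 4 members can therefore be read from these arrays.

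**Figure D1:**
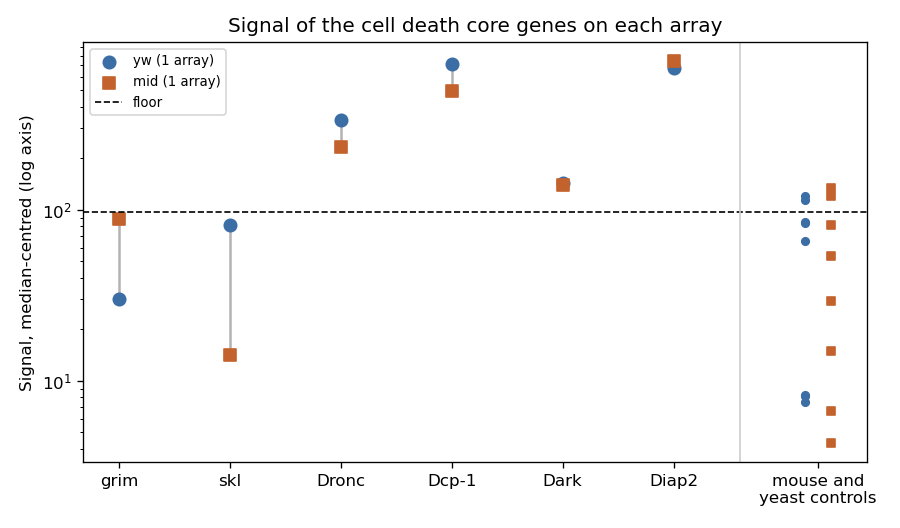
Median-centred signal on a log axis for the 6 core genes with a probe set, with 1 point for the *yw* array and 1 for the *mid* array, beside the 8 mouse and yeast control probe sets; the dashed line is the floor of 97.6. *Dronc*, *Dcp-1*, *Dark* and *Diap2* lie above the floor on both arrays, and *grim* and *skl* lie below it on both, within the range of the controls.

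**Figure D2:**
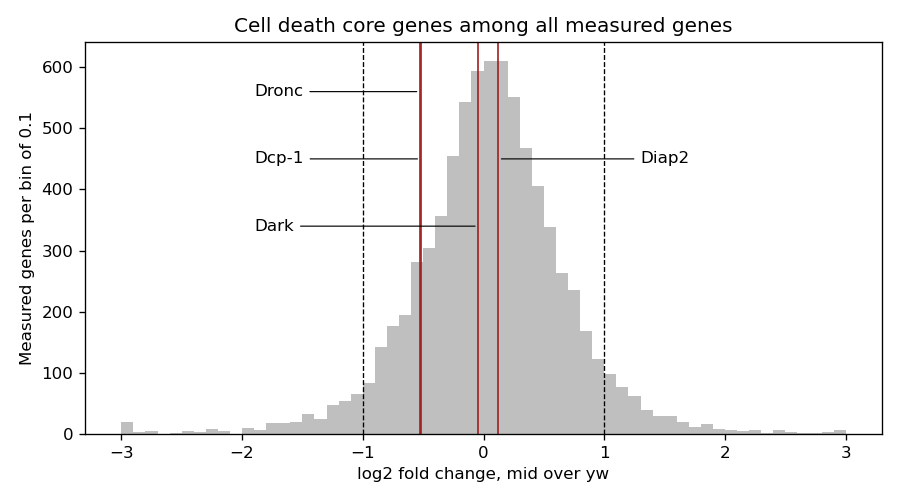
Histogram of log2 fold changes, *mid* over *yw*, of the 7685 measured genes in bins of 0.1, with values beyond 3 in either direction drawn in the outermost bins. Solid lines mark the 4 measured core genes and dashed lines a 2-fold difference. *Dronc* (-0.53) and *Dcp-1* (-0.52) lie in the lower flank, and *Dark* (-0.04) and *Diap2* (0.12) near the centre.

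The death inducers *grim* and *skl* gave dim signals with opposite differences between the arrays. *grim*, which encodes an inducer transcribed in cells about to die, read 29.9 in *yw* and 87.9 in *mid*. The *mid* array was the brighter of the pair, but at 0.90 times the floor it did not reach it. *skl*, which encodes Sickle, read 81.5 in *yw* and 14.1 in *mid*, with the *yw* array the brighter at 0.84 times the floor. No fold is given for either gene with the floor in place. Without a floor *grim* would be 2.94-fold higher in *mid* and *skl* 5.78-fold lower. Under that setting 11.2% of all named genes were called higher and 13% lower at 2-fold.

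Control probe sets for mouse and yeast transcripts, which fly RNA should not hold, gave a measure of signal without a target. Their 8 signals ran from 7.48 to 121 in *yw* with a median of 74.9, and from 4.32 to 135 in *mid* with a median of 41.4. In *yw*, 5 of the 8 were brighter than *grim* and 4 brighter than *skl*. In *mid*, 2 were brighter than *grim* and 6 brighter than *skl*. Both inducers thus lay within the range of these controls on both arrays. *Dronc*, *Dcp-1*, *Dark* and *Diap2* were above each of the 8 controls on both arrays, *Dark* by little. On each array 2 of the controls exceeded the floor, so that a signal above the floor does not by itself show that a transcript was present.

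All inducer genes lie in a cluster on the left arm of chromosome 3, in the order *hid*, *grim*, *rpr*, *skl* in the RefSeq gene table of release 6. Between the outermost of them the table holds 13 other genes, of which 4 encode proteins. Each of these 4, *CG7320*, *CheA75a*, *CG5103* and *CG13700*, had a probe set, and each was at the floor on both arrays. Their signals ran from 4.996 to 68.4 over both arrays. *CG5103* read 68.4 in *yw* and 11.1 in *mid*, and *CG7320* read 40.2 and 40.3. The rest are noncoding, and 2 of them overlap *grim*.

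Among the 5 nearest genes on each side of the inducers, 5 of 10 had a probe set. *geko* read 909 in *yw* and 822 in *mid*, and *CG7330* read 231 and 254, both within 2-fold. *CG4306*, beyond *skl*, read 127 in *mid* against a floor value in *yw*, at least 1.302-fold higher. *Cyp312a1* and *CG13699* were at the floor on both arrays.

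**Figure D3:**
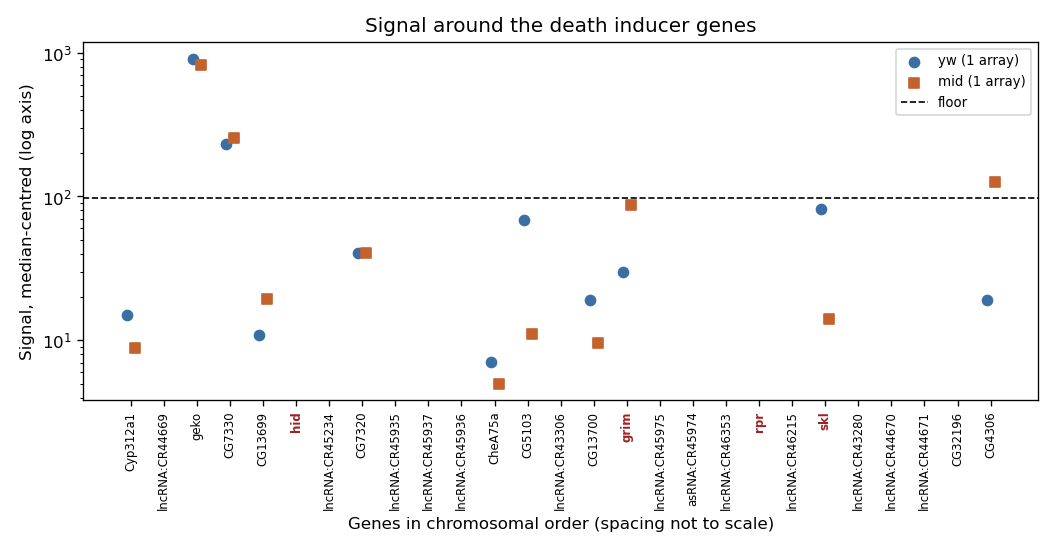
Median-centred signal on a log axis for genes around the death inducers, in chromosomal order from left to right with spacing not to scale, inducers in red; points stand for the *yw* and *mid* arrays, genes without points had no probe set with a single symbol, and the dashed line is the floor of 97.6. The genes from *hid* to *skl* that had a probe set lie below the floor on both arrays, whereas *geko* and *CG7330* lie above it.

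Other genes of the cell death pathway were taken from 8 lists. Of 102 further symbols, 82 had a probe set annotated with a single symbol and 69 were measured. The calls were 4 higher (5.80%) and 2 lower (2.90%), where all measured genes gave 5.66% and 4.5%. The median log2 fold change was 0.15, against 0.06 for all measured genes. These shares were near the background. The counts of the single lists below stand against the same 5.66% and 4.5%.

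Of the other caspase genes, none of 3 measured was called. *Dredd*, the initiator caspase of the Imd pathway, read 512 in *yw* and 448 in *mid*. *Damm* read 182 and 197. *Strica*, an initiator caspase gene, was lower by at least 1.26-fold, with 123 in *yw* and a floor value in *mid*. The median of the list was -0.19.

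Among 7 measured regulators of inhibitors and caspases, 1 was called lower and none higher. This was *Acn*, which encodes Acinus, a nuclear protein with roles in RNA processing, autophagy and cell death, with 382 in *yw* and 176 in *mid* (2.17-fold lower). The list median was 0.01. Among 5 genes of the Bcl-2 family and of mitochondria none was called, and the median was 0.28. *Buffy*, a Bcl-2 family gene, read 228 in *yw* and 327 in *mid*. *Marf*, the mitofusin gene, read 1042 and 1655. *Drp1*, which encodes the dynamin of mitochondrial fission, was lower by at least 1.64-fold, with 160 in *yw* and a floor value in *mid*.

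Among 7 measured genes of p53 and DNA damage, 1 was called higher and none lower, with a median of 0.15. *rad50*, a gene of DNA break repair, read 242 in *mid* against a floor value in *yw*, at least 2.47-fold higher. Among 12 measured genes of TNF and JNK signalling, 1 was called lower and none higher. *msn*, which encodes a kinase upstream of JNK, read 531 in *yw* and 231 in *mid* (2.29-fold lower). The list median nevertheless was 0.38, with 8 of 12 genes above 0 and 4 below, after median centring.

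Among 5 measured genes for the clearance of dying cells, 1 was called higher and none lower. *drpr*, which encodes the engulfment receptor Draper, read 1599 in *yw* and 3217 in *mid*. This was 2.01-fold higher, barely past the threshold, and the call was lost with each of the other scalings. A second, dimmer probe set read 10.6 and 5.54, below the floor throughout. *drpr* is also among 13 markers of hemocytes, the macrophages of the embryo. Of these 12 were measured, of which 4 were called higher (*drpr* itself, *srp*, *NimC1* and *Sr-CI*) and none lower. All measured genes gave 5.66% higher and 4.5% lower. The summed signal of the hemocyte markers was 22322 in *yw* and 33083 in *mid*, most of it from the collagen genes *vkg* (8188 and 10900.4) and *Col4a1* (8764 and 13807), neither of which was called. *Hml*, a defining marker, read 677 in *yw* and 519 in *mid*, and *gcm* stayed below the floor. Their part in the *drpr* result was not tested.

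Of 18 measured autophagy genes, 1 was called higher (5.56%, against 5.66% of all measured genes) and none lower, with a median of 0.14. *Pi3K59F*, which encodes the lipid kinase Vps34 that starts autophagosome formation, read 216 in *yw* and 758 in *mid* (3.52-fold higher). Among 12 measured genes listed as acting upstream of the inducers, 1 was called higher and none lower, with a median of 0.18. *srp*, which encodes a GATA factor of blood cells, fat body and gut, read 114 in *yw* and 271 in *mid* (2.37-fold higher). It was no longer called with the spiked controls or with values as deposited, and with the floor at the 60th percentile *srp*, *rad50* and *Acn* were not called.

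**Figure D4:**
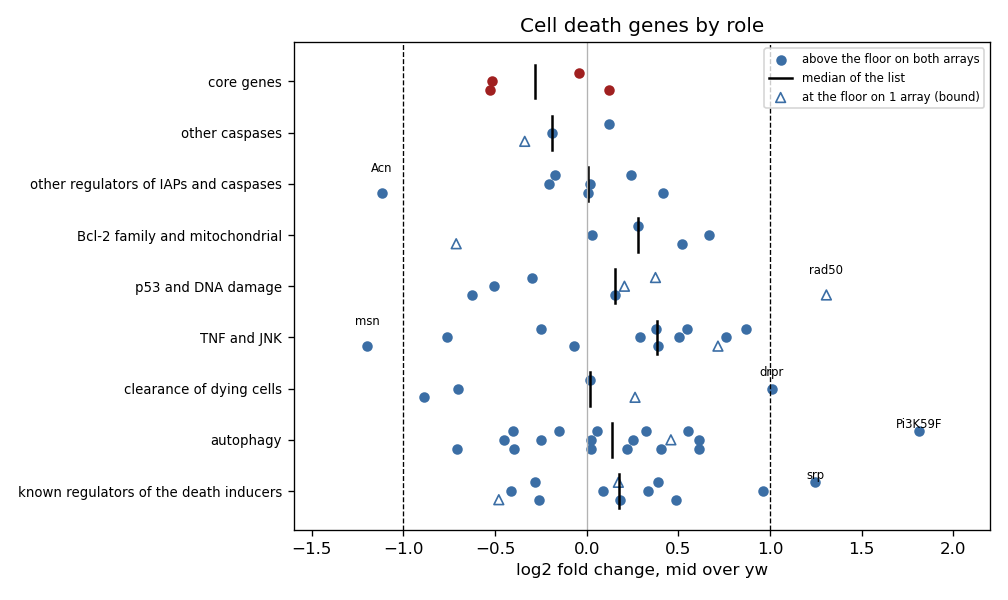
Log2 fold change, *mid* over *yw*, of the 4 measured core genes (red) and of the measured genes of 8 further cell death lists (blue); filled circles are above the floor on both arrays, open triangles are bounds for genes at the floor on 1 array, vertical bars are list medians, and dashed lines mark 2-fold. *Acn* and *msn* lie past the line on the lower side, and *rad50*, *drpr*, *Pi3K59F* and *srp* on the higher side.

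Of 7 measured genes of dividing cells 4 were called lower and none higher, with a median of -2.31. This median is the value of *fzy*, a bound because *fzy* was at the floor in *mid*. Among those above the floor on both arrays, the mitotic cyclin gene *CycB* had the largest difference, with 9266 in *yw* and 562 in *mid*. *RnrL*, at -0.29, differed less than *Dronc* and *Dcp-1*. *pim* read 659 in *yw* against a floor value in *mid*, at least 6.75-fold lower, a bound that cannot be ranked against *CycB*. The list as a whole was below 0, as these caspase genes were, and the summed signal of its 8 genes with a probe set was 14049 in *yw* and 1713 in *mid*. Whether cells in division account for any of the difference in *Dronc* and *Dcp-1* was not tested. Neuronal markers went the other way, with 3 of 6 measured called higher, none lower and a median of 0.90, although *Syb* was at -0.04. Muscle markers, with 2 of 5 measured called higher and a median of 0.42, and glial markers, with 1 of 5 and 0.37, also had medians above 0. A further 3 neuronal markers stayed below the floor. Of 13 measured genes of epidermis and cuticle 5 were called higher, and of 6 measured genes of fat body and gut 3 were called lower. These 3 were the digestive enzyme genes *Amy-d*, *Jon25Bi* and *Jon74E*, while the fat body genes *Fbp1* and *Lsp2* were at the floor on both arrays. Among all measured genes, 5.66% were called higher and 4.5% lower.

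As scaled, *Dronc*, *Dcp-1* and *Dark* had negative log2 fold changes with each scaling run. *Dark* was -0.03 with quantile normalization, -0.06 with loess, -0.15 with the equal mean of central values and -0.37 with the spiked controls. *Diap2* was 0.03, 0.01, 0.01 and -0.21 under the same scalings. Relative to the shift of all genes, only quantile normalization and loess can move a value that is above the floor on both arrays. With these scalings *Dronc* was -0.52 and -0.52, *Dcp-1* -0.54 and -0.54, *Dark* 0.03 and 0.02, and *Diap2* 0.09 and 0.10. The choice of probe set cannot move the 4 measured members, as each gene had 1. After median centring, of the floors only that at the 60th percentile reached a measured member, *Dark*. With values as deposited, each of the 4 measured members was more than 2-fold lower in *mid*, as were most genes on the array. The value of *Dark* there was a bound, with *mid* at the floor. *grim* and *skl* were called with the floor at the 20th percentile, *grim* at least 2.75-fold higher and *skl* at least 2.55-fold lower. At that floor 9.06% of measured genes were called higher and 9.33% lower.

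**Figure D5:**
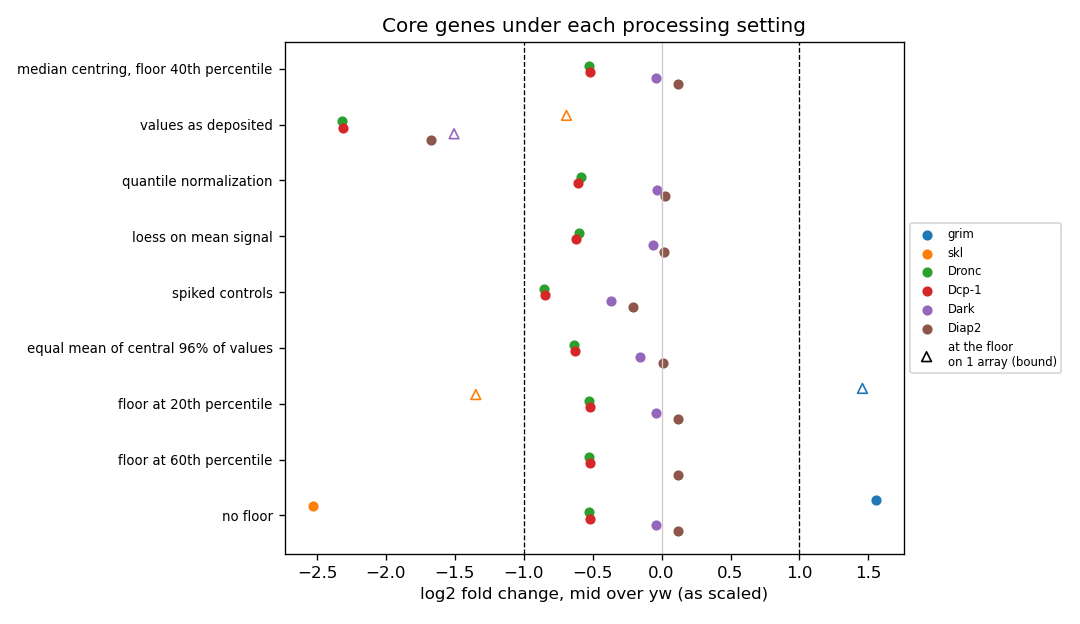
Log2 fold change, *mid* over *yw*, of the core genes under each scaling and floor, as scaled and with the shift of all genes left in; filled circles are above the floor on both arrays, open triangles are at the floor on 1 array, genes at the floor on both arrays are not drawn, and dashed lines mark 2-fold. *Dronc* runs from -0.53 with median centring to -0.85 with the spiked controls and lies at -2.32 as deposited, and *grim* and *skl* have a value past 2-fold only with the floor at the 20th percentile or with no floor.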

How the data were processed

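RNA of *yw* and of *mid* embryos was measured on Affymetrix *Drosophila* arrays after biotin labelling. The deposited values are linear MAS5 signal intensities made by the authors (tool named in the submitters' processing notes), for 14010 probe sets on each of 2 arrays. The sources used here do not give version, scaling target or detection calls. Each array was centred on its median, values below the 40th percentile of the pooled signals were set to that floor, and the brightest probe set stood for a gene. Symbols came from a platform annotation (12444 probe sets with a single symbol, 327 with several, 1239 with none), updated through RefSeq. Where only 1 array was above the floor, the fold is a bound. The number of arrays limits the precision.

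The members and lists were chosen with earlier results of these data known. Named genes were the members, list genes past 2-fold or, in lists without any, up to 3 with the largest change, and measured neighbours. Other neighbours were named after their values were seen. Alternatives were other scalings (as deposited, quantile, loess with span 0.3, spiked controls, equal mean of the central 96% of values), floors (20th or 60th percentile, none), thresholds (1.5-fold, 3-fold) and probe set rules. Scripts ran in Python 3.11.15 with pandas 2.3.3 and numpy 2.4.6, loess in statsmodels 0.14.6, and plots in matplotlib 3.10.9.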

Additional observations from a re-analysis of the deposited data

How the results depend on the processing

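No paired analysis was possible because each genotype had 1 array. Relative to median centring, all genes shifted by -1.79 on the log2 scale as deposited, -0.06 with quantile normalization, -0.08 with loess, -0.33 with the spiked controls and -0.11 with the equal mean of central values. Of the core genes, 4 were called lower with values as deposited, where *Dark* (-1.51) and *skl* (-0.69) were at the floor in *mid*. With the floor at the 20th percentile 1 was called higher and 1 lower, *grim* at 1.46 and *skl* at -1.35, and with no floor again 1 and 1, *grim* at 1.56 and *skl* at -2.53. Calls among the other cell death genes, 4 higher and 2 lower after median centring, were 0 and 57 as deposited, 2 and 6 with the spiked controls, 9 and 5 with the floor at the 20th percentile, 2 and 1 at the 60th, 12 and 6 with no floor, 11 and 8 at 1.5-fold, and 1 and 0 at 3-fold. The call of *drpr* was lost with each other scaling and with the median over probe sets or the dimmest probe set. Among all genes, 435 were called higher and 346 lower after median centring, 331 and 431 with the equal mean of central values, 204 and 716 with the spiked controls, 19 and 6419 as deposited, 873 and 899 with the floor at the 20th percentile, 228 and 165 at the 60th, and 1211 and 1412 with no floor. A lower floor admits more dim genes, and the cause of the other changes was not tested. For genes above the floor on both arrays, scalings by a constant cannot move a value relative to the shift of all genes. Floors and probe set rules cannot move bright genes with 1 probe set. Unmoved values under such settings are therefore no sign of stability. Signals near the floor, those of *Dark*, *grim* and *skl* among them, limit what these arrays can show.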

Other observations

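For the amnioserosa, an extraembryonic epithelium that is removed by cell death after dorsal closure, 8 marker genes were listed. Of these 5 were measured and none was called, with a median log2 fold change of 0.53 after median centring. Among all measured genes, 5.66% were called higher and 4.5% lower. Of the measured markers, 4 were above 0 and 1 below. Of those above 0, *ush* (0.53) is also a listed hemocyte marker, and *kay* (0.76) is also in the TNF and JNK list. *Doc1*, a T-box gene, read 396 in *yw* and 459 in *mid*, while *zen*, *zen2* and *Doc3* were at the floor on both arrays. *Doc2* went the other way, with 148 in *yw* and a floor value in *mid*, at least 1.52-fold lower. *peb*, which encodes the zinc finger protein Hindsight, read 155 and 224. The genes named here were chosen after their values were seen.

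Several genes of the cell death lists had more than 1 probe set, with like or unlike fold changes. The *Egfr* probe sets, both above the floor, went opposite ways, with 191 in *yw* and 372 in *mid* (1.95-fold higher) for the brighter and 157 and 147 for the other. The paper's supplement lists *Egfr* among genes down-regulated in the *mid* mutant, by cutoffs that include a P value. It also lists *EcR*, *wts*, *Kr* and *Src42A* there. *EcR* read 110 in *mid* against a floor value in *yw*, at least 1.13-fold higher. *wts* and *Kr* were at the floor on both arrays, and *Src42A* had no probe set with a single symbol. *hep*, which encodes the kinase that activates JNK, had a probe set with 159 in *yw* and 225 in *mid* and another with 149 and 237, so both were higher in *mid* by less than 2-fold. *br* was likewise higher in *mid* by 1.40-fold and 1.62-fold in those of its probe sets that were above the floor. *Atg13* gave 1.47-fold (3409 in *yw* and 4998 in *mid*) and 1.05-fold (231 and 243). *Atg16* was within 2-fold in its brightest probe set, with 192 and 162, and its dimmest was at the floor on both arrays.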
